A study of Hymenochirus boettgeri with 8 samples.

Results

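Gene-level RNA abundance in 8-cell embryos was compared with that in unfertilized eggs of Hymenochirus boettgeri, a dwarf clawed frog related to Xenopus. Poly-A RNA had been sequenced from whole eggs, embryos and tadpoles at 4 stages, with 2 libraries per stage. This comparison uses 4 of the 8 libraries, replicates 1 and 2 of unfertilized eggs and replicates 1 and 2 of 8-cell embryos. All animals were wild-type and no treatment is recorded. No label tells whether replicates came from different clutches or how many eggs went into each library, so the spread between replicates may be technical.

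The table gives TPM, a share of all transcripts in a library scaled for transcript length. TPM was summed over all transcripts of 1 assembly gene, the identifier without its isoform number, which gave 145306 gene totals from 220713 transcripts. Genes were taken into the comparison when their total reached 5 TPM in at least 2 of the 4 libraries, and 22492 of the 145306 genes (15.5%) did. These genes held 89.9% to 93.9% of the TPM of each egg and 8-cell library. The identifiers carry no gene names, so marker genes of the egg could not be looked up, genes are described as groups or by their rank, and 4 identifiers are given.

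The RNA of an unfertilized frog egg is made by the mother during oogenesis and stored. In Xenopus the embryo's own genome stays largely silent through the first cleavages and is switched on at the mid-blastula transition, so an 8-cell embryo still lives on the maternal store. In Xenopus that store is regulated after transcription, by translation, by decay and by lengthening or shortening of the poly-A tails. Libraries made by poly-A capture count RNA that carries a tail. More RNA, more RNA with a tail and a smaller share of other RNAs therefore cannot be told apart in these values. Nor can fewer cells of a type and less RNA per cell.

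The egg and 8-cell libraries differed in how evenly their RNA was spread over genes. The 10 most abundant genes held 10.7% and 13.8% of the TPM in egg replicates 1 and 2, and 6.78% and 7.41% in 8-cell replicates 1 and 2. The 1000 most abundant genes together made up 60.0% ± 1.00 of egg TPM and 49.7% ± 0.903 of 8-cell TPM (mean ± SD, n = 2 each). Put another way, 50% of the TPM was held by 461 and 440 genes in the egg libraries and by 977 and 1077 genes in the 8-cell libraries. The groups did not overlap on any of these measures. On the last measure, libraries of 1 later stage lay further apart than the egg and 8-cell libraries did. There 50% of the TPM was held by 4400 and 853 genes at stage 26 and by 1610 and 4202 genes in tadpoles. The smallest two-sided p of an exact permutation test on 2 and 2 libraries is 0.333, so no test is given for these values.

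The reverse held for genes of moderate level. Of the 22492 genes compared, 13989 and 15366 reached 5 TPM in egg replicates 1 and 2, and 19096 and 21103 in 8-cell replicates 1 and 2. Their median level was 7.93 and 7.99 TPM in the egg libraries and 11.5 and 12.2 TPM in the 8-cell libraries. At 1000 TPM or more the order was opposite, with 117 and 113 genes in the egg libraries and 96 and 89 in the 8-cell libraries. The same 5 TPM limit had chosen the genes compared. It admitted 2807 genes through both 8-cell libraries and no egg library, and 210 through both egg libraries and no 8-cell library. The counts at 5 TPM and the median levels are therefore set in part by the filter. On the log2(TPM + 1) scale the median gene was 0.56 higher at the 8-cell stage. This difference depended on the filter. It was 0.45 with a mean of at least 10 TPM and 0.24 with 5 TPM in all 4 libraries. With a minimum of 1 TPM in 2 of the 8 libraries, or with no filter, it was 0. TPM is a share, and the few most abundant genes held a larger share in eggs. The absolute size of the shift in the median gene and what sets it were not tested. Median-of-ratios scaling, which sets the libraries to a common median gene, moved the median difference to -0.0013, and quantile normalization moved it to -0.049. Both were computed over all 8 libraries. Values below are for TPM as deposited unless a scaling is named.

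The weakest agreement among the 4 libraries was that between the eggs. Across the 22492 genes, which are not independent replicates, Pearson's r of log2(TPM + 1) was 0.404 between the egg libraries and 0.792 between the 8-cell libraries. Egg replicate 1 correlated at 0.616 and 0.612 with 8-cell replicates 1 and 2, and egg replicate 2 at 0.572 and 0.760. The points of each correlation share the library's depth and scaling, and their read totals are unknown. Over all assembly genes, 51089 were above 0 in egg replicate 1, 77233 in egg replicate 2, and 78406 and 83561 in the 8-cell libraries.

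A group of genes was detected in egg replicate 2 and 8-cell replicate 2 and hardly elsewhere. There were 783 genes at 5 TPM or more in both of these libraries and below 1 TPM in both egg replicate 1 and 8-cell replicate 1. Of these, 730 (93.2%) were also below 1 TPM in all 4 stage 26 and tadpole libraries, and 471 were listed at 0 in all 6 libraries outside this combination. The other combinations of 1 egg and 1 8-cell library gave 18 genes (both replicate 1), 27 genes (egg replicate 1 with 8-cell replicate 2) and 53 genes (egg replicate 2 with 8-cell replicate 1). The most abundant gene of the group reached 242 TPM in egg replicate 2, with 104 TPM in 8-cell replicate 2. In egg replicate 1 and 8-cell replicate 1 it was at 0.933 and 0.541 TPM, and it was listed at 0 in the 4 later libraries. Together the 783 genes held 1.87% of the TPM of egg replicate 2 and 0.939% of that of 8-cell replicate 2, against 0.00462% and 0.0133% in the replicate 1 libraries. The 1 TPM limit leaves out genes of the same order with higher replicate 1 values. The 1334 genes at least 4-fold higher in 8-cell replicate 2 than in 8-cell replicate 1 include the 783. They held 6.66% of the TPM of egg replicate 2 and 3.32% of that of 8-cell replicate 2. In egg replicate 1 and 8-cell replicate 1 they held 0.548% and 0.241%, and their median was 0 in each later library. What sets these libraries apart was not tested. By its definition the group of 783 genes holds no gene that is separated between the stages or steady across them. Without it, r was 0.450 between the egg libraries and 0.844 between the 8-cell libraries, and an egg and an 8-cell library correlated at 0.574 to 0.772.

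**Figure D1:**
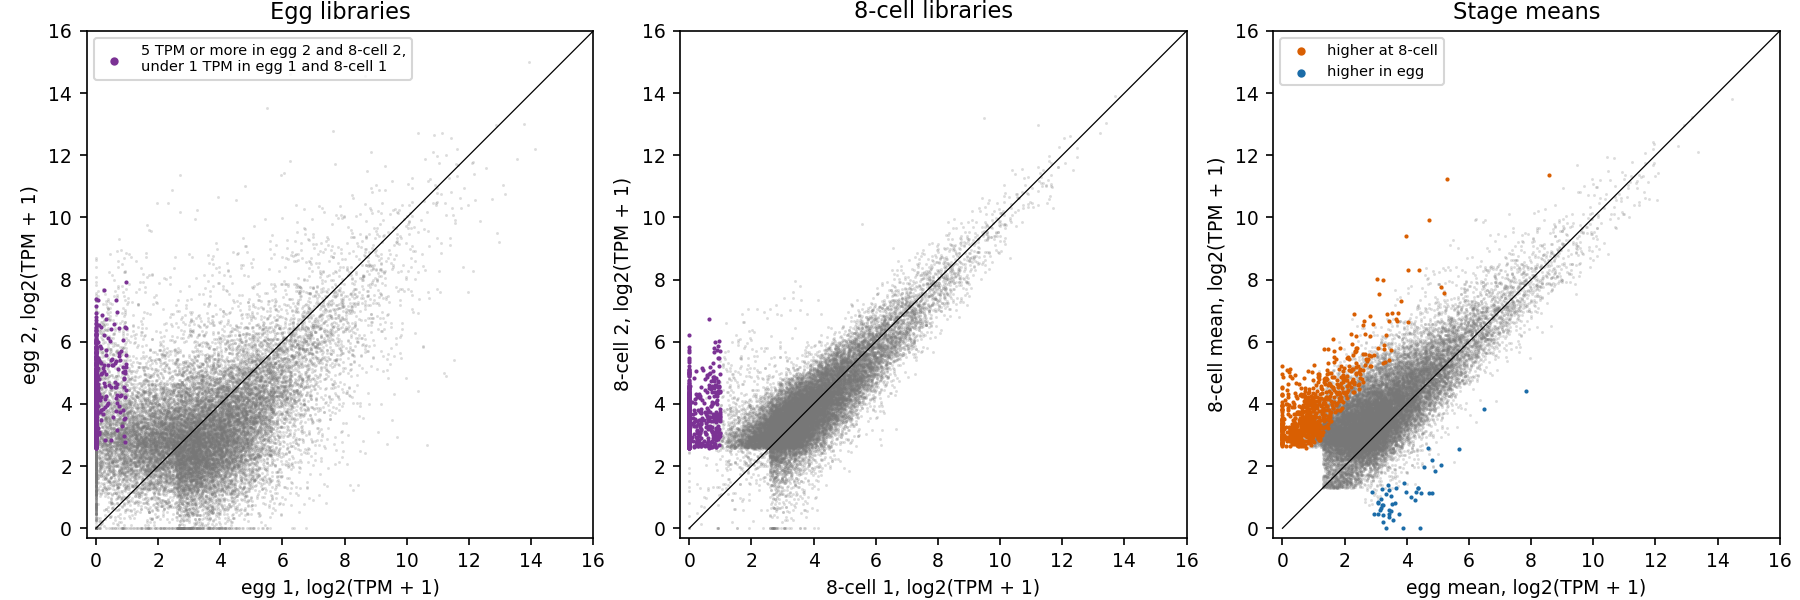
Gene totals as log2(TPM + 1) for the 22492 genes: egg replicate 1 against egg replicate 2, 8-cell replicate 1 against 8-cell replicate 2, and the mean of the egg libraries against the mean of the 8-cell libraries; each point is a gene and the line marks equal values. The cloud is wider between the egg libraries (r = 0.404) than between the 8-cell libraries (r = 0.792); purple points are the 783 genes found in egg replicate 2 and 8-cell replicate 2, and coloured points in the last panel are the 757 genes at least 4-fold higher at the 8-cell stage and the 47 at least 4-fold higher in eggs in all library pairs.

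In their most abundant genes, an egg and an 8-cell library had more in common than the egg libraries had with each other. Of the 100 most abundant genes of each library, 42 were among the top 100 in all 4 libraries. An egg and an 8-cell library shared 58 to 68 of their top 100, the number common to both egg libraries was 49, and it was 81 for the 8-cell libraries. Of the top 1000, 435 genes were common to all 4 libraries. An egg and an 8-cell library shared 593 to 713 of these, the egg libraries 537 and the 8-cell libraries 789.

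The most abundant gene by its mean over the 4 libraries was at 15743 and 32622 TPM in egg replicates 1 and 2 and at 13291 and 15305 TPM in 8-cell replicates 1 and 2. It ranked first or second in every one of these libraries. It was at 567 and 5388 TPM in stage 26 replicates 1 and 2 and at 1126 and 551 TPM in the tadpole libraries, so all later libraries lay below all early ones. The gene of rank 2 was at 17754 and 4750 TPM in the eggs and at 10866 and 8458 TPM in 8-cell embryos, with the egg values on both sides of the 8-cell values. The gene of rank 6 was the steadiest of the top 10, at 7427 and 8142 TPM in eggs and 9567 and 6708 TPM in 8-cell embryos, a 1.43-fold range over the 4 libraries. The gene of rank 10 spanned 1.65-fold, from 3438 TPM in egg replicate 2 to 5685 TPM in 8-cell replicate 1. Its later values were lower, at 42.7 and 162 TPM at stage 26 and 12.4 and 13.7 TPM in tadpoles.

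Other genes at the top of the list were highest in egg replicate 2 and far lower in egg replicate 1. The gene of rank 3 by mean was at 402 and 24179 TPM in egg replicates 1 and 2, a 60.2-fold gap, and at 714 and 9422 TPM in 8-cell replicates 1 and 2. The 8-cell gap was 13.2-fold, in the same direction. This is the order of the genes found in egg replicate 2 and 8-cell replicate 2. With replicate 1 values above 1 TPM, the gene is not counted among them. Later this gene was at 1.03 TPM in stage 26 replicate 2 and listed at 0 in the other later libraries. The gene of rank 4 was at 75.2 and 25194 TPM in the eggs, a 335-fold gap, and at 5263 and 2954 TPM in 8-cell embryos. The gene of rank 12 was at 44.0 and 11886 TPM in the eggs and at 1907 and 1739 TPM in 8-cell embryos. For the genes of rank 4 and 12 both 8-cell values lay between the egg values and within 1.78-fold and 1.10-fold of each other. None of the 10 most abundant genes was separated between the stages by 4-fold in all library pairs.

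**Figure D2:**
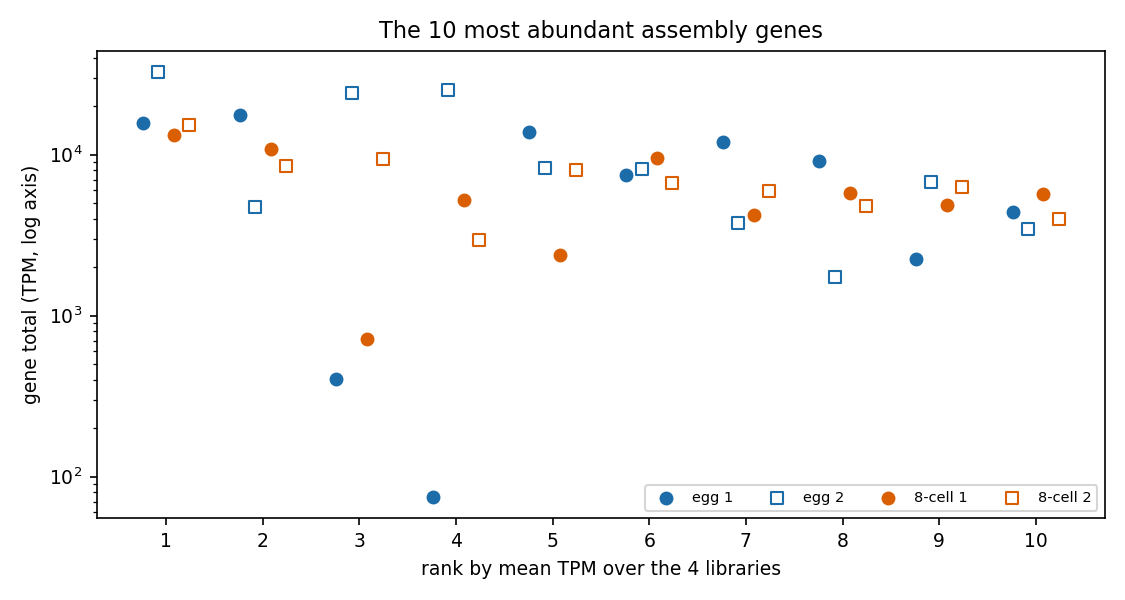
Gene totals in TPM (log axis) of the 10 most abundant assembly genes, ranked by their mean over the 4 libraries; filled circles are replicate 1 and open squares replicate 2, blue for eggs and orange for 8-cell embryos. The egg values at rank 3 (402 and 24179 TPM) and rank 4 (75.2 and 25194 TPM) lie far apart, while all 4 values at rank 6 lie between 6708 and 9567 TPM.

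A gene was called steady when the highest of the 4 libraries was at most 2 times the lowest. Of the 22492 genes, 2353 (10.5%) were steady. They held 15.2% and 14.3% of the TPM in egg replicates 1 and 2 and 15.0% and 14.0% in 8-cell replicates 1 and 2. Without egg replicate 1 the count was 7053, without egg replicate 2 it was 5887, and without 8-cell replicate 1 it was 3991. Without 8-cell replicate 2 it was 3332. Steadiness is easier to reach over fewer libraries, so these counts are expected to exceed 2353. Over the 4 libraries the count was 2632 with median-of-ratios scaling and 2687 with quantile normalization. Both egg libraries were within 2-fold of each other for 32.7% of genes and both 8-cell libraries for 73.9%. An egg and an 8-cell library were within 2-fold for 37.2% to 52.0%. The median absolute difference in log2(TPM + 1) was 1.34 between the egg libraries, 0.53 between the 8-cell libraries and 0.86 to 1.17 across the 4 pairs of an egg with an 8-cell library.

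Abundant genes lay closer together between the 8-cell libraries, which was much less so between the eggs. Among the 92 genes with a mean of 1000 TPM or more, 93.5% were within 2-fold between the 8-cell libraries, against 69.5% of the 10427 genes under 10 TPM. Between the egg libraries these shares were 38.0% and 29.7%, with a median absolute log2 difference of 1.34 and 1.33. The share of genes steady over all 4 libraries was 7.62% under 10 TPM, 11.6% from 10 to 50 TPM, and between 17.4% and 17.9% in each class above 50 TPM. The median difference between the stages also changed with abundance. It was 0.67 higher at the 8-cell stage under 10 TPM, 0.51 from 10 to 50 TPM, 0.37 from 50 to 100 TPM and 0.20 from 100 to 1000 TPM, and -0.056 at 1000 TPM or more, on the log2(TPM + 1) scale. The classes were formed on the same 4 libraries, so these are descriptions. They also hold the genes that entered through 1 stage alone, 2807 through the 8-cell libraries and 210 through the eggs. The part of the filter in the change with abundance was not tested.

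**Figure D3:**
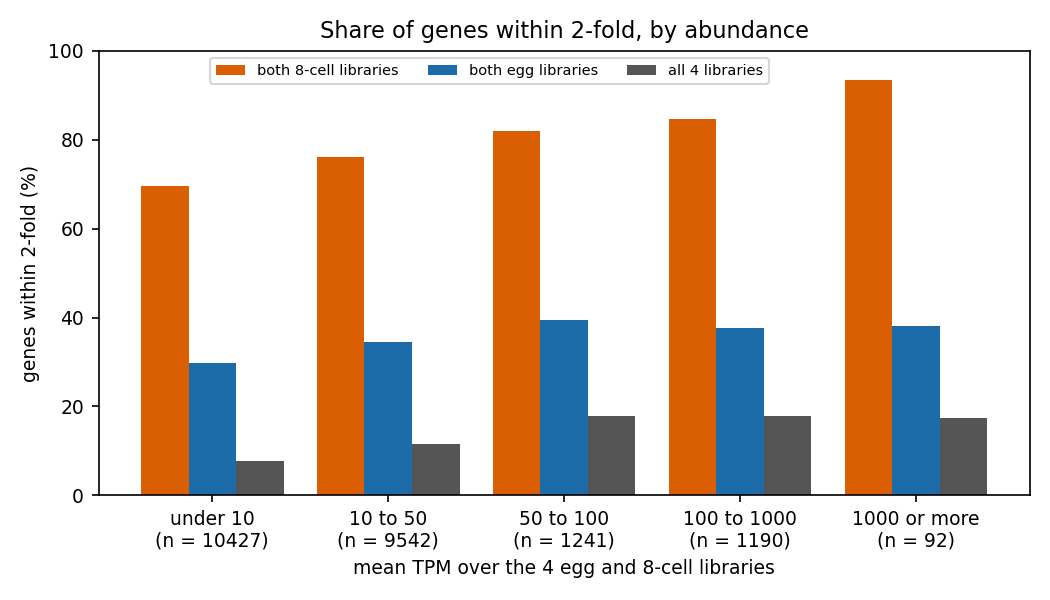
Share of genes (%) whose values lay within 2-fold, by class of mean TPM over the 4 libraries, with the number of genes in each class; bars show the 8-cell libraries, the egg libraries and all 4 libraries. The 8-cell share rises from 69.5% to 93.5% with abundance, whereas the egg share stays between 29.7% and 39.4%.

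The genes that differed most between the eggs had like median levels in both 8-cell libraries. At least 4-fold more was found in egg replicate 1 than in egg replicate 2 for 3664 genes, and the reverse for 5598. Between the 8-cell libraries such gaps were found for 367 genes in favour of replicate 1 and for 1334 in favour of replicate 2. The eggs of the same number had the same order for 135 of the 367 (36.8%) and for 1128 of the 1334 (84.6%). Both the 5598 and the 1334 genes include the 783 genes found in egg replicate 2 and 8-cell replicate 2. By their definition all 783 were higher in egg replicate 2, so they make up most of the 1128 with the same order. The 3664 genes had a median of 21.3 and 2.70 TPM in egg replicates 1 and 2 and of 10.5 and 10.6 TPM in 8-cell replicates 1 and 2. For 2507 of them (68.4%) both 8-cell values lay between the egg values. The 5598 genes had a median of 0.303 and 12.3 TPM in the eggs and of 8.68 and 10.7 TPM in 8-cell embryos. Both 8-cell values lay between the egg values for 2085 of these (37.2%). In shares of the library, the 3664 genes held 29.4% and 3.81% of the TPM in the eggs and 12.1% and 11.8% in 8-cell embryos. The 5598 held 2.00% and 31.9% in the eggs and 17.8% and 18.9% in 8-cell embryos. These genes were chosen for a wide gap between the eggs, and such a choice by itself favours a narrower gap in other libraries.

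Across all genes, none passed the test between the stages in either direction, so 0% were called higher at the 8-cell stage and 0% higher in eggs. The smallest adjusted p was 0.240 (limma fitted to log2(TPM + 1) of all 8 libraries, two-sided, with Benjamini-Hochberg adjustment over 22492 genes). At an unadjusted p under 0.05, limma gave 2737 genes (12.2%) higher at the 8-cell stage and 110 (0.489%) higher in eggs. With median-of-ratios scaling these counts were 865 and 423 of the 22492 genes, and with quantile normalization 1063 and 693. If no gene differed, a share of 0.05 of genes would be expected under this limit over both directions together. The counts at an unadjusted p are therefore not read as genes that differ. The counts over 22492 genes include those that entered through 1 stage alone, 2807 through the 8-cell libraries and 210 through the eggs. With the 8906 genes at 5 TPM or more in all 4 libraries, limma gave 522 and 40. The main fit takes a common spread over all stages, although the egg libraries differed more from each other than the 8-cell libraries did. A fit to the 4 egg and 8-cell libraries alone gave 1336 and 66, with a smallest adjusted p of 0.706 (limma). The 0 calls of the main fit rested on egg replicate 2. Without it, limma called 2700 genes at an adjusted p under 0.05, 2542 higher at the 8-cell stage and 158 higher in egg replicate 1, with that lone egg library assumed to vary like the other stages. Leaving out egg replicate 1 or either of the 8-cell libraries instead gave 0 calls with limma.

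Both 8-cell libraries lay above both egg libraries for 7761 genes (34.5%), and both egg libraries lay above both 8-cell libraries for 1194 (5.31%). This imbalance was nearly absent under the other scalings, with 3969 and 3795 genes (17.6% and 16.9%) after median-of-ratios scaling. After quantile normalization the counts were 4116 and 3418 (18.3% and 15.2%). With the 4 libraries in random order, a share of 0.333 of genes is expected in both directions together. Both scalings bring the libraries to a common level over the genes compared, which by itself favours balance. The filter also admitted 2807 genes at 5 TPM or more in both 8-cell libraries and in no egg library, and 210 the other way round. A stricter separation was then described, in which the lowest library of the higher stage was at least 4 times the highest library of the lower stage. This held for 757 genes higher at the 8-cell stage (3.37%) and 47 genes higher in eggs (0.209%). Each count rested on all 4 libraries. It was 2545 and 260 without egg replicate 1, 5676 and 359 without egg replicate 2, 972 and 102 without 8-cell replicate 1, and 1446 and 216 without 8-cell replicate 2, where fewer pairs have to be separated. The balance also depended on the scaling, and here too both scalings by themselves favour balanced counts. With median-of-ratios scaling 368 genes were higher at the 8-cell stage and 88 in eggs, and with quantile normalization the counts were 196 and 209. The share of separated genes that were higher at the 8-cell stage was thus 94.2%, 80.7% and 48.4% under the 3 scalings. Under all 3 scalings 134 of the 757 genes were separated, and all 47 of the genes higher in eggs. Median-of-ratios scaling divided the egg libraries by 1.27 and 1.03 and the 8-cell libraries by 1.71 and 1.82. It therefore raised every egg value relative to every 8-cell value, and none of the 47 genes could drop out under it. That all 47 were kept does not make them more robust than the 757. Quantile normalization gives a gene listed at 0 a value above 0, and 28 of the 94 genes listed at 0 in both eggs were among the 134. For single pairs of libraries, and in either direction, 17.2% to 34.6% of genes were at least 4-fold apart between an egg and an 8-cell library, 41.2% between the egg libraries and 7.56% between the 8-cell libraries.

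**Figure D4:**
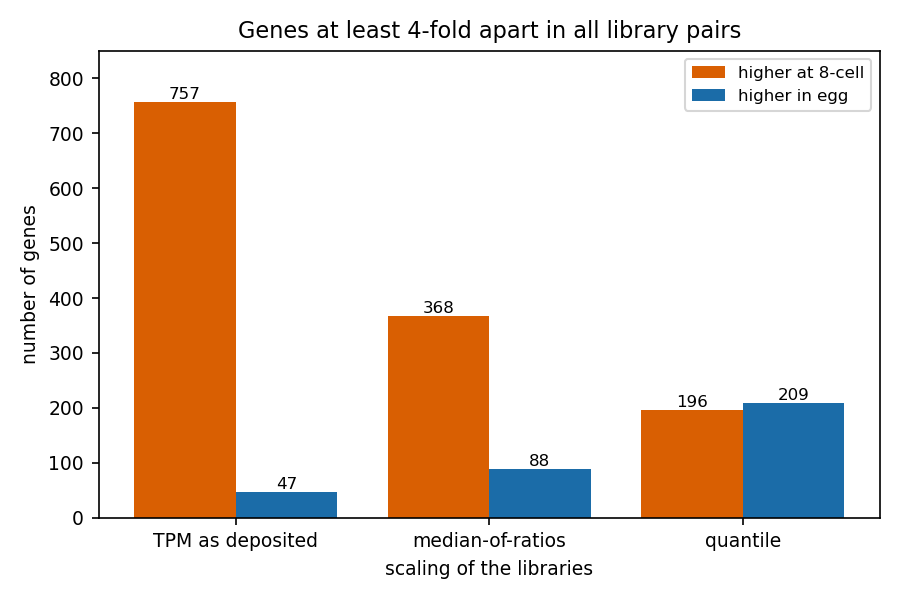
Number of genes at least 4-fold higher at the 8-cell stage (orange) or in eggs (blue) in all 4 library pairs, with TPM as deposited, median-of-ratios scaling and quantile normalization. The counts go from 757 and 47 to 368 and 88 and to 196 and 209, without an excess at the 8-cell stage after quantile normalization. Both scalings by themselves favour balanced counts.

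Most separated genes were of low level, and most entered the comparison through 1 stage alone. Of the 757 genes higher at the 8-cell stage, 678 were among the 2807 genes that entered the comparison through the 8-cell libraries alone, and 43 of the 47 genes higher in eggs were among the 210 that entered through the egg libraries alone. A gene that enters in this way has to be lower in the other stage, so these counts are not evidence of a difference. Among the 8906 genes at 5 TPM or more in all 4 libraries, 26 were separated towards the 8-cell stage and 2 towards eggs. For these genes the counts were 7 and 11 with median-of-ratios scaling and 15 and 6 with quantile normalization, so the direction of the excess turned in the first. The median mean level was 6.08 TPM for the 757 genes and 6.17 TPM for the 47, against 10.8 TPM over all genes compared. Of the 757, 94 were listed at 0 in both eggs and 218 in 1 of them. Of the 47, 3 were listed at 0 in both 8-cell libraries. For the 663 genes above 0 in an egg library, the median ratio of the lowest 8-cell to the highest egg library was 5.75, and 186 reached 8. For the 44 genes above 0 in an 8-cell library the median ratio of the lowest egg to the highest 8-cell library was 6.60, and 14 reached 8. Close to the limit, 229 genes had a ratio from 4 to 5 towards the 8-cell stage and 500 a ratio from 3 to 4. In the other direction these counts were 12 and 26. The gene just inside the limit was at 1.08 and 1.99 TPM in eggs and 20.6 and 7.96 TPM in 8-cell embryos, and the one just outside at 0.081 and 3.81 TPM in eggs and 15.2 and 15.7 TPM in 8-cell embryos. Towards eggs, the gene just inside was at 23.3 and 26.1 TPM in eggs and 5.82 and 4.20 TPM in 8-cell embryos, and the one just outside at 108 and 18.4 TPM in eggs and 4.71 and 2.38 TPM in 8-cell embryos.

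A few separated genes were abundant at the 8-cell stage. The most abundant was at 305 and 480 TPM in egg replicates 1 and 2 and at 2478 and 2772 TPM in 8-cell replicates 1 and 2, rank 65 of all genes compared. It was at 45.1 and 535 TPM at stage 26 and 123 and 31.2 TPM in tadpoles, and it was not separated under all 3 scalings. The next was at 137 and 10.3 TPM in eggs and at 2691 and 2188 TPM in 8-cell embryos, and it was separated under all 3 scalings. Its values at stage 26 were 37.8 and 0.163 TPM and in tadpoles 1.01 and 15.6 TPM. The one after that was at 11.1 and 56.1 TPM in eggs and 1147 and 811 TPM in 8-cell embryos, and at 1.01 TPM or less in every later library. For each of these genes both 8-cell values lay above all 6 other values, those of stage 26 and tadpoles included. The last 2 of these also differed between the eggs, in opposite directions. The adjusted p of these 3 genes lay between 0.240 and 0.374 (limma).

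Genes at 0 in the eggs led the list by ratio. With TPM + 1 in both stages, and among genes averaging 10 TPM or more, the 2 largest ratios towards the 8-cell stage belonged to c129904_g2 and c127521_g3. Gene c129904_g2 was listed at 0 in both eggs and was at 47.6 and 27.7 TPM in 8-cell replicates 1 and 2. It was also detected later, at 17.9 and 13.3 TPM at stage 26 and 23.2 and 1.04 TPM in tadpoles. Gene c127521_g3 was also listed at 0 in both eggs and was at 23.8 and 37.9 TPM in 8-cell embryos. Its later values were 3.80 and 1.23 TPM at stage 26 and 1.28 and 17.1 TPM in tadpoles. Both genes count as separated because they were listed at 0 in the eggs, and no fold is given against 0.

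In the other direction the leading genes were c11783_g1 and c105346_g1. Gene c11783_g1 was at 36.9 and 11.0 TPM in egg replicates 1 and 2 and was listed at 0 in both 8-cell libraries. It was at 0.836 TPM in stage 26 replicate 1 and listed at 0 in the other 3 later libraries. Gene c105346_g1 was at 28.7 and 22.4 TPM in eggs and at 0.942 and 1.49 TPM in 8-cell embryos, so its lowest egg value was 15.0 times its highest 8-cell value. It was between 1.84 and 5.63 TPM in the later libraries. The egg values of c105346_g1 were close to each other (25.5 ± 4.51 TPM, SD, n = 2), and those of c11783_g1 were not (24.0 ± 18.4 TPM). All 4 genes had been chosen for their separation, so the gap itself is a description.

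The most abundant gene higher in eggs was at 399 and 132 TPM in egg replicates 1 and 2 and at 21.9 and 19.2 TPM in 8-cell embryos. It was at 6.16 TPM in stage 26 replicate 2 and at 0.156 TPM or less in the other later libraries. The next was steady within each stage, at 89.6 and 89.4 TPM in eggs and 11.8 and 14.7 TPM in 8-cell embryos. Later it was at 15.3 and 19.3 TPM at stage 26 and 25.1 and 27.05 TPM in tadpoles, all below both eggs. These values are from the most abundant end of a group whose egg medians were 12.1 and 11.0 TPM.

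The stage 26 and tadpole libraries played no part in choosing these groups on TPM as deposited. All 4 later libraries reached 5 TPM for 18.2% of the 757 genes higher at the 8-cell stage (138 genes) and for 10.6% of the 47 higher in eggs (5 genes). This share was 32.6% over all genes compared and 44.5% of the steady genes (1046 of 2353). All 4 later libraries were below 1 TPM for 16.6% of the genes higher at the 8-cell stage, 17.0% of those higher in eggs, 9.30% of all genes and 1.78% of the steady genes. The groups also differ in their early level, with a median mean of 15.2 TPM for steady genes against 6.08 and 6.17 TPM for the separated ones, and the part of level in these shares was not tested.

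The genes higher at the 8-cell stage had a median of 11.8 and 10.4 TPM in the 8-cell libraries, 3.20 and 2.50 TPM at stage 26, and 2.88 TPM in both tadpole libraries. All 4 later medians lay above the egg medians of 0.483 and 1.21 TPM, which the choice of the group had set low. They lay below the medians over all genes compared, 6.29 and 5.03 TPM at stage 26 and 4.41 and 5.05 TPM in tadpoles. The 134 genes separated under all 3 scalings had a median of 19.4 and 17.4 TPM in the 8-cell libraries, 4.52 and 2.47 TPM at stage 26 and 4.33 and 3.25 TPM in tadpoles. The later libraries took part in the scalings and so in choosing these 134 genes. The genes higher in eggs had a median of 0.942 and 1.13 TPM at the 8-cell stage, 1.05 and 2.90 TPM at stage 26 and 1.66 and 1.22 TPM in tadpoles, all below the egg medians. In shares of the library, the 757 genes went from 0.141% and 0.222% of the TPM in eggs to 2.35% and 1.94% in 8-cell embryos, and the 47 genes from 0.127% and 0.0843% to 0.00938% and 0.00869%. The early parts of these values are set by how the groups were chosen.

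**Figure D5:**
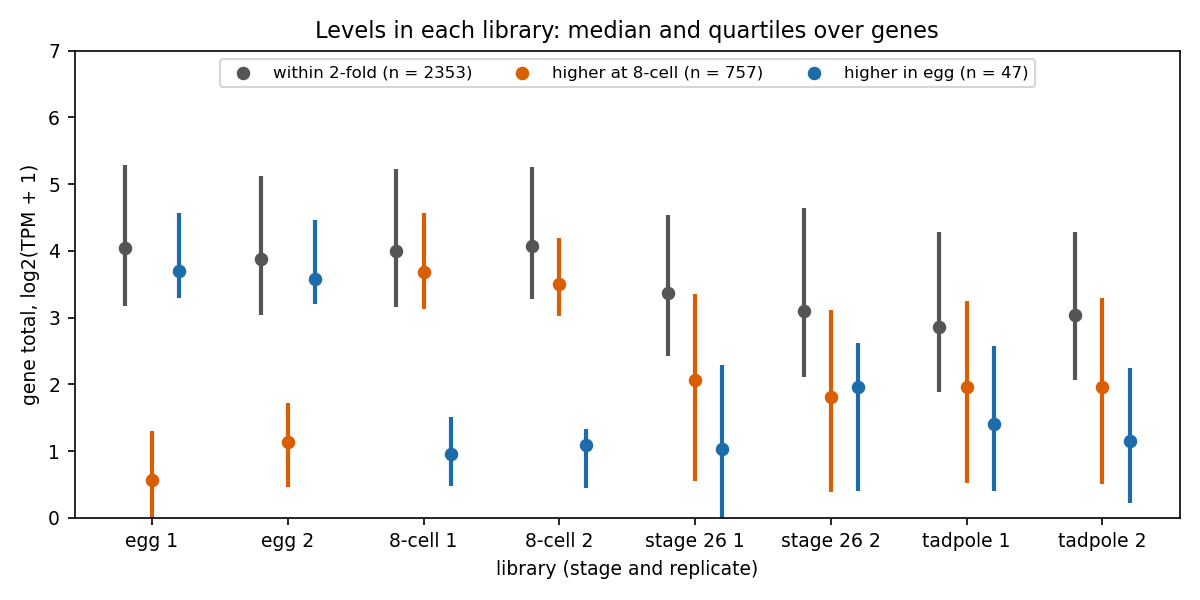
Median (point) and quartiles (line) of log2(TPM + 1) over genes in each of the 8 libraries for steady genes (n = 2353), genes higher at the 8-cell stage (n = 757) and genes higher in eggs (n = 47). The separated groups were chosen on the egg and 8-cell libraries. In the later libraries the median of the genes higher at the 8-cell stage lies between 2.50 and 3.20 TPM. That of the genes higher in eggs lies between 1.05 and 2.90 TPM. Over all genes compared, which are not drawn, the later medians lie between 4.41 and 6.29 TPM.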

How the data were processed

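The authors deposited TPM values for 220713 assembled transcripts in 8 poly-A libraries, and the submitters' processing notes name kallisto 0.42.4. The assembly is not described in the sources used here. TRIzol extraction, column purification and strand-specific library preparation are given per the labels' protocols. Stages and replicate numbers came from the source names, and columns were matched by title.

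No read totals were at hand and TPM does not keep depth, so no counting intervals are given. The 4 columns used sum to between 992629 and 998506. TPM was summed per assembly gene, and genes with 5 TPM in 2 of the 4 libraries were kept. The values log2(TPM + 1) were fitted with limma 3.58.1 in R 4.3.3, a mean for each of the 4 stages and a trended prior variance (4 residual and 5.08 prior degrees of freedom), and genes were called at an adjusted p under 0.05. Each p-value reflects no more than the spread of these libraries. The fit was tested on simulated data. Separation and steadiness were counted without a test. Named genes had a mean of at least 10 TPM, were 4-fold separated and had the 2 largest ratios of TPM + 1 in each direction. Genes described by rank as the most abundant of a group were chosen after their values were seen. The members and rules were chosen with earlier results of these data known. Summaries used Python 3.11.15, pandas 2.3.3, numpy 2.4.6 and matplotlib 3.10.9.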

Additional observations from a re-analysis of the deposited data

How the results depend on the processing

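The 0 calls between the stages were also obtained with limma under every alternative run except 1: pseudocounts of 0.1 and 5, 4 other filters, both scalings, a fit to the 4 libraries, a constant prior variance, transcripts, assembly components, and each library left out, where the count ranged from 0 to 2700 (without egg replicate 2). The fits without 1 stage 26 or tadpole library, the count over same-numbered pairs and the scalings of the non-overlapping genes were added after seeing the data. The 4 named genes kept their direction in all 18 alternatives that tested them. They passed the test in 1 of these, without egg replicate 2, with adjusted p from 0.0245 to 0.0443 (limma), and over the others adjusted p ranged from 0.143 to 0.996 (limma).

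The counts of separated genes moved with most choices. In the order higher at the 8-cell stage and higher in eggs, they were 450 and 27 with the ratio taken on TPM + 1, 7281 and 714 with a minimum of 1 TPM in 2 of the 8 libraries, 9132 and 887 with no filter, 26 and 2 with 5 TPM in all 4 libraries, and 211 and 15 with a mean of at least 10 TPM. They were 368 and 88 with median-of-ratios scaling and 196 and 209 with quantile normalization. Genes whose stages did not overlap then numbered 3969 and 3795 (17.6% and 16.9%), and 4116 and 3418 (18.3% and 15.2%), in place of 7761 and 1194. A minimum ratio of 2 gave 2727 and 138, a ratio of 8 gave 280 and 17, and transcripts that were not summed gave 909 and 86. Leaving out 1 library, which leaves 2 pairs, gave 972 (without 8-cell replicate 1) to 5676 (without egg replicate 2) and 102 (without 8-cell replicate 1) to 359 (without egg replicate 2). The count of steady genes was 3784 and 3891 with the 2 lower filters, 1558 with a mean of at least 10 TPM, and 3332 to 7053 with 1 library left out, where 7053 was without egg replicate 1. Lower filters test more genes, and fewer libraries make separation and steadiness easier. The causes of the other moves were not tested.

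With the replicate number as a block, limma called 0 genes, and the pairs of same-numbered libraries alone gave 1002 and 61 separated genes. Deviations of same-numbered libraries correlated at r = 0.253 across genes, and at 0.061 without the 783 genes found in egg replicate 2 and 8-cell replicate 2. With 2 pairs and no label on their origin, the numbers were not taken as pairs. The unknown depth limits all values near 0.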

Other observations

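Transcripts separated in opposite directions between the egg and the 8-cell stage were found in 5 genes. Of the 22492 genes compared, 12180 (54.2%) had 1 transcript and 10312 had more. Genes with 1 transcript were about as steady as the others, with 10.9% and 9.96% within 2-fold over the 4 libraries. In the genes with more than 1 transcript, the leading transcript held a median of 70.1% of the gene total, and the same transcript led in all 4 libraries in 5086 genes (49.3%). Among the 1027 steady genes with more than 1 transcript, 13 had a transcript that was at 5 TPM or more in both 8-cell libraries and at least 4-fold higher there than in both eggs, and 6 had one that met the same limits towards eggs. No steady gene had both. Among all 10312 genes, 496 had such a transcript towards the 8-cell stage, 53 had one towards eggs and 5 had both. How many would have both if the directions were unrelated was not tested. These counts are for TPM as deposited. For gene totals the balance depended on the scaling, with 757 and 47 genes as deposited and 196 and 209 after quantile normalization. Reads that fit several transcripts of a gene are divided by estimate, so values of single transcripts are less certain than gene totals.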
